A study of Rattus norvegicus with 12 samples.

Results

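DNA replication and mitosis genes were followed in primary aortic smooth muscle cells of newborn rats, as a list of 40 genes: 13 for DNA replication and nucleotide supply and 27 for mitosis. A gene counted as measured when at least 1 probe set of the array listed it as its only gene symbol, and it was represented by the brightest such probe set. By this rule 36 of the 40 genes were measured, 11 for replication and 25 for mitosis, of 9906 genes with a probe set bright enough to be tested in all. Ndc80, Tpx2 and Cdc6 had no probe set that lists them, and both probe sets for Rrm2 list 2 symbols, so these 4 genes have no value here. The 36 measured genes all passed the filter on dim probe sets, and 10 of them had further probe sets.

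Cells that divide switch these genes on in waves. Before and during S phase the MCM proteins open DNA as a helicase, the clamp encoded by Pcna holds the polymerases on it, and enzymes such as thymidine kinase (Tk1) supply nucleotides. In G2 and mitosis cyclin B with Cdk1, the Aurora and Polo kinases, kinesins and kinetochore proteins condense, align and separate the chromosomes, and Cdc20 then directs cyclin B to destruction. Smooth muscle cells of a healthy artery seldom divide, whereas cultured or injured ones do, and thrombin is a known mitogen for them.

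All cells were kept overnight without serum. There were 12 arrays from 3 experiments, each with 2 arrays of unstimulated and 2 of stimulated cells, taken after 120 min. Cells received thrombin at 2 U/ml (the thrombin experiment), the receptor-activating peptide TRAP at 25 µM (the TRAP experiment), or TRAP at 25 µM after 24 h of pertussis toxin (PTX, which uncouples receptors from Gi proteins) at 200 ng/ml (the PTX experiment). Unstimulated arrays are labelled as having no agent in all 3 experiments, and whether those of the PTX experiment came from cells given PTX is not stated. Nothing in the labels states that replicates are separate cultures, so a p-value here covers only the spread between the arrays, which may be technical. The number of arrays limits the precision: among these genes a response had a median standard error of 0.21 on the log2 scale. Exact permutation of 2 against 2 arrays cannot go below p = 0.33, so every test here is from the fit across all probe sets.

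The cells carried the smooth muscle markers, with mean signals of 7221 for Acta2, 5561 for Tagln and 1668 for Cnn1, though Myh11, a marker of the mature contractile cell, was dim at 50.7. Endothelial Pecam1 (4.24) and leukocyte Ptprc (4.28) were near 0, but endothelial Tek (45.4) and leukocyte Cd14 (408) were not. Of the markers measured, 1 of 6 endothelial, 2 of 8 leukocyte and 5 of 6 fibroblast genes passed the filter on dim probe sets. The fibroblast markers Mfap5, Dcn and Pdgfra had mean signals of 5431, 1720 and 239. Lum, Pi16 and Dpt were dimmer, at 98.2, 28.2 and 16.2. Whether fibroblasts were among the cells was not tested. Median signals of the arrays ran from 39.7 to 53.6. Replicate 1 of TRAP and replicate 1 of TRAP after PTX stood apart from the unstimulated arrays of their own experiments. Saa3, Lcn2 and Ccl2, genes of the inflammatory response, show it. Saa3 read 18.1 and 15.9 on the unstimulated arrays of the TRAP experiment, 22.8 on TRAP replicate 2 and 20.3 on TRAP after PTX replicate 1. It read 421 and 375 on the unstimulated arrays of the PTX experiment, 222 on TRAP replicate 1 and 238 on TRAP after PTX replicate 2. Lcn2 fell on the same sides, at 20.2 to 32.8 against 275 to 360.2, as did Ccl2, at 598 to 1591 against 3397 to 6721. In these genes each array of the pair thus fell on the side of the unstimulated arrays of the other experiment. Its Ccl2 level was nearer to the stimulated array on that side. TRAP replicate 1 read 6681, TRAP after PTX replicate 2 read 6721, and the unstimulated PTX-experiment arrays 4003.5 and 3397. TRAP after PTX replicate 1 read 1434, TRAP replicate 2 read 1591, and the unstimulated TRAP-experiment arrays 608 and 598. The labels were kept as deposited. Whether those of the pair were exchanged was not tested, and an exchange would change what every response to TRAP and to TRAP after PTX given here means. Responses are therefore given with and without this pair of arrays.

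Promoters of 31 of the 36 measured genes were found by Entrez gene number among the RefSeq promoters of the rat build GRCr8. They were windows of 250 bases before and 50 after the start of the gene. A few are printed because the mitosis and the replication genes differ in the short motifs they hold. On both strands, CCAAT (the CCAAT box), TTTGAA (the cell cycle homology region, a motif of genes that peak in G2 and mitosis) and GCGAAA or GCGGGAA or GCGCCAA (cores of E2F-like sites, a motif of genes that peak in S phase) were searched. GCGCCAA overlaps CCAAT where a T follows it, and an E2F-like core can overlap another. The stretches end at the base before the start, read 5′ to 3′ along the gene, and have the matches in capitals. Ccnb2 (cyclin B2, chr8:79981659-79981778, minus strand) and Cdc20 (chr5:137255800-137255899, minus strand) are mitosis genes with TTTGAA close to the start and CCAAT boxes beside it, and Mcm6 (chr13:42404353-42404502, minus strand) and Mcm7 (chr12:22163179-22163278, minus strand) are helicase subunits with E2F-like cores.
Ccnb2: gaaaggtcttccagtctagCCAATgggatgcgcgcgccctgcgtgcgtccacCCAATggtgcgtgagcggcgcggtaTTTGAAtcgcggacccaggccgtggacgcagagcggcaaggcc
Cdc20: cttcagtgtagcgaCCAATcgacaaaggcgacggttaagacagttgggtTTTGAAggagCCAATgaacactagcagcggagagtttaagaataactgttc
Mcm6: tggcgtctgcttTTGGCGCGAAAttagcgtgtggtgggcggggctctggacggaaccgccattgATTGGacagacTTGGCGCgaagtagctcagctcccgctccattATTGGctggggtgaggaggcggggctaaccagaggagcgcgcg
Mcm7: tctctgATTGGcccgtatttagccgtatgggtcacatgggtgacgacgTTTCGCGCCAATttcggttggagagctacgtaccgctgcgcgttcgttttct

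In Ccnb2 the TTTGAA match starts at base -43 from the start and in Cdc20 at -51. In Mcm7 the reverse-strand core TTTCGC at -52 runs into GCGCCAA at -48 and CCAAT at -45, and in Mcm6 TTGGCGC at -138 overlaps GCGAAA at -133. TTTGAA stood in 15 of 21 mitosis promoters and 1 of 10 replication promoters (Mcm2), against 18.3% of all 33469 promoters of the table. An E2F-like core stood in 4 of 21 mitosis promoters and 8 of 10 replication promoters, against 10% of all. CCAAT was common to both classes, at 17 of 21 and 7 of 10 against 37.5% of all, and CCAAT together with TTTGAA stood in 13 of 21 mitosis promoters, 0 of 10 replication promoters and 7.41% of all. These are matches of letters in RefSeq sequence, not measured sites. Nuf2, Aurka, Kif2c and Bub1b had no CCAAT in the window, and Plk1 had TTTGAA at base 6 after the start.

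The largest differences in these genes were between the unstimulated cells of the experiments, not between unstimulated and stimulated cells. Signals are given below with replicate 1 before replicate 2, for unstimulated cells of the thrombin, TRAP and PTX experiments and then for the stimulated cells in the same order. Mki67, the proliferation antigen Ki-67 that coats mitotic chromosomes, read 334 and 258, 1096 and 926, and 515 and 608 in unstimulated cells, and 233 and 260.2, 527 and 900.3, and 943 and 539 after the stimuli. Top2a, the topoisomerase that untangles sister chromatids, read 203 and 306, 908 and 771, and 474 and 565 in unstimulated cells, and 297 and 324, 542 and 914, and 831 and 438 after the stimuli. Both genes were lowest on the 4 arrays of the thrombin experiment. Within the TRAP and PTX experiments they were high on the unstimulated arrays of the TRAP experiment, on replicate 2 of TRAP and on replicate 1 of TRAP after PTX, and intermediate on the other 4 arrays.

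**Figure D1:**
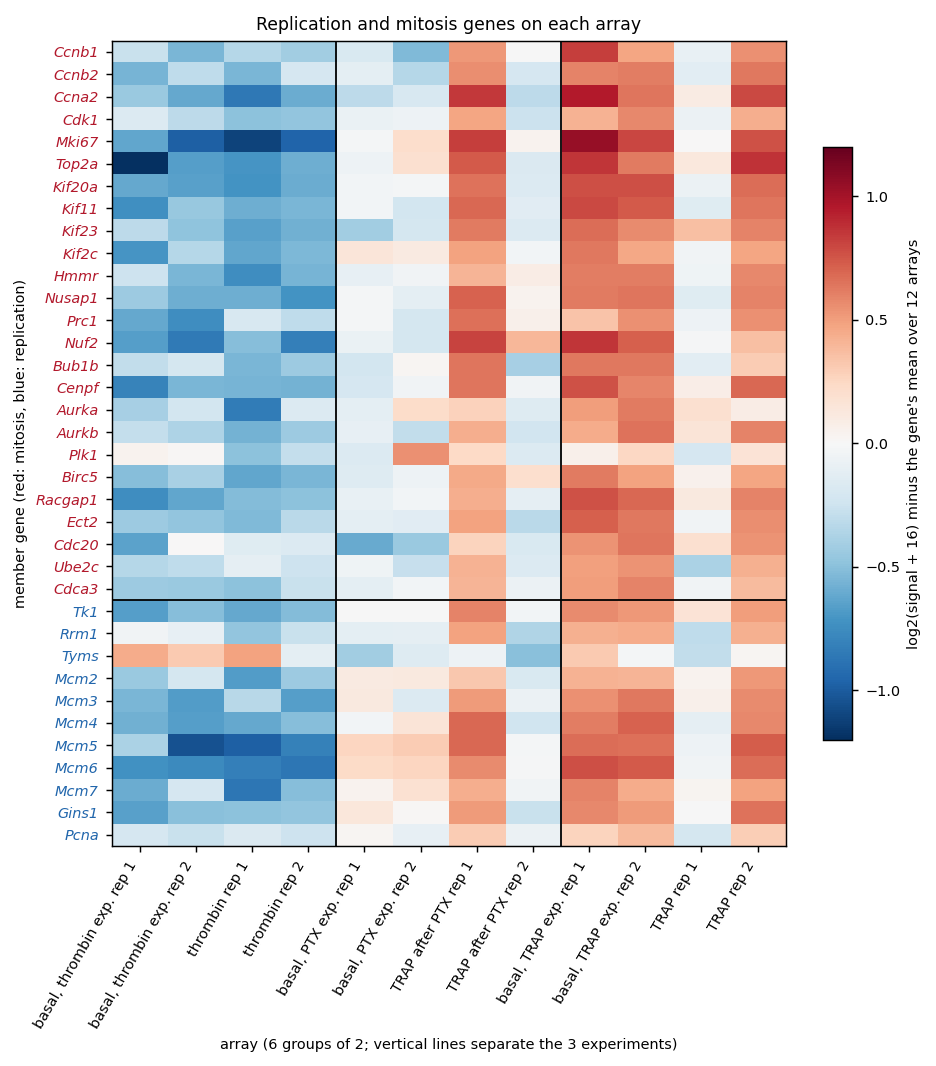
Heat map of the 36 measured genes (vertical axis, mitosis in red type, replication in blue) on the 12 arrays (horizontal axis, grouped by experiment); colour is log2(signal + 16) minus the gene's mean over the 12 arrays. The 4 arrays of the thrombin experiment are mostly blue, and TRAP after PTX replicate 1 and TRAP replicate 2 are as red as the unstimulated TRAP arrays while their partners are pale.

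The cyclins and their kinase followed the same order of arrays. Ccnb1, cyclin B1, read 246 and 199.6, 544 and 422, and 261 and 202 in unstimulated cells, and 232 and 219, 279.6 and 443, and 436 and 297 after the stimuli. Cdk1, the kinase it activates, read 619 and 554, 935 and 1043, and 655 and 667, then 488 and 495, 660.0 and 948, and 970.0 and 578. Ccnb1 on the unstimulated arrays of the PTX experiment overlapped the thrombin experiment, whereas Cdk1 there lay just above it.

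Among kinesins, kinetochore and cytokinesis genes the same pattern was seen. Kif20a, a kinesin of the central spindle, read 187 and 181, 516 and 516, and 288 and 291, then 174 and 189.5, 279.9 and 477, and 472 and 262. Cenpf, a protein of the outer kinetochore, read 136 and 164, 431 and 379, and 214 and 240.4, then 163 and 162, 262 and 408, and 396 and 240.3. Their unstimulated arrays separated into 3 levels without overlap, lowest in the thrombin experiment and highest in the TRAP experiment. Racgap1, part of the centralspindlin complex that starts cytokinesis, read 205 and 224, 615 and 582, and 333 and 346, then 243 and 248, 385 and 545, and 486 and 327. Nuf2, a subunit of the Ndc80 complex that ties kinetochores to microtubules, read 180.5 and 157, 548 and 496, and 279 and 253, then 203 and 160.5, 293 and 383, and 531 and 395. For Nuf2, TRAP after PTX replicate 2, at 395, lay above TRAP replicate 2, at 383.

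Plk1 and Aurka, with Nuf2, were the mitosis genes in which the high and the intermediate arrays overlapped. Plk1, the Polo kinase, read 235 and 230.3, 239 and 274, and 202 and 341, then 157 and 184, 197 and 257, and 272 and 202. Aurka, the Aurora A kinase of spindle poles, read 83.1 and 96.2, 169.7 and 186, and 104 and 136, then 57.0 and 100.5, 134 and 123, and 142 and 101. Cdc20, the activator of the anaphase-promoting complex, read 185 and 298, 439 and 474, and 189.5 and 214, then 266 and 264, 341 and 438, and 359.7 and 259. The unstimulated Plk1 values of the PTX experiment spanned those of both other experiments, and Aurka was the 1 gene of 36 that was higher on TRAP replicate 1 than on TRAP replicate 2. Cdc20 on the unstimulated arrays of the PTX experiment lay within the range of the thrombin experiment.

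The replication genes moved with the mitosis genes, apart from Tyms in the thrombin experiment. Mcm2, a helicase subunit, read 231 and 274, 431 and 428, and 346 and 348, then 195 and 232, 329 and 465, and 405 and 279.7. Mcm5, another subunit, read 147 and 86.5, 322 and 319.7, and 237 and 246, then 91.4 and 104, 187 and 334, and 326 and 193. Mcm6, whose promoter is shown above, read 194 and 188, 579 and 561, and 391 and 399, then 181 and 174, 320.5 and 536, and 498 and 328. In all 3 subunits the unstimulated cells of the PTX experiment lay between those of the other experiments. Pcna, the polymerase clamp, read 1702 and 1627, 2358 and 2559, and 1994 and 1826, then 1732 and 1648, 1695 and 2401, and 2427 and 1868. Tk1, which salvages thymidine, read 213 and 238, 520.1 and 504, and 346 and 346, then 221 and 238, 389.5 and 499, and 533 and 339. Tyms, which makes thymidylate, had the dimmest probe set of the 36 and read 78.7 and 70.1, 70.0 and 52.1, and 35.9 and 46.3, then 81.0 and 48.0, 40.6 and 54.5, and 50.4 and 33.1. Its 3 highest values were in the thrombin experiment, where the other 10 replication genes had their lowest value.

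Unstimulated cells of the TRAP experiment had higher levels of these genes than unstimulated cells of the thrombin experiment. By the limma test at an adjusted p of 0.05 over all 18625 probe sets tested, 33 of 36 genes were higher and 0 lower, where 22.2% of all probe sets were called higher (18.5% lower). They comprised 24 of 25 mitosis and 9 of 11 replication genes. The median log2 difference was 1.06 for mitosis and 1.12 for replication genes, and 0.01 over all probe sets. Mki67 was 3.31-fold higher (log2 1.73 ± 0.25 SE, adjusted p = 0.000101) and Top2a 3.21-fold (1.68 ± 0.27, adjusted p = 0.000265). Nuf2 (1.55 ± 0.16, adjusted p = 7.49e-06), Racgap1 (2.67-fold) and Mcm6 (2.83-fold) had the smallest p-values. In every gene except Tyms both arrays of the TRAP experiment lay above both of the thrombin experiment (36% of all probe sets), and Tyms lay below.

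By role, all 4 cyclin and kinase genes, all 4 kinesins, all 3 spindle and all 3 kinetochore and checkpoint genes measured were called higher, as were both chromosome and both cytokinesis genes, all 3 genes of proteolysis and all 7 helicase genes (Mcm2 to Mcm7 and Gins1). Of the mitotic kinases and the chromosomal passenger complex, Aurka (0.88), Aurkb (0.88) and Birc5 (1.00) were called. The helicase genes ranged from 1.67-fold for Mcm2 to 2.60-fold for Mcm5 and 2.83-fold for Mcm6. Pcna was 1.47-fold higher (0.56 ± 0.15, adjusted p = 0.00841). The 3 genes not called were Plk1 (0.13 ± 0.21, 95% interval -0.32 to 0.57, adjusted p = 0.657), Rrm1, the large subunit of ribonucleotide reductase (0.51 ± 0.23, adjusted p = 0.0979), and Tyms (-0.24 ± 0.24, adjusted p = 0.459). Of the nucleotide supply genes only Tk1 was called (1.13 ± 0.17, adjusted p = 0.000149). Without the pair of arrays that stand apart, which enter here through the shared estimate of the spread, 34 genes were called higher (21.6% of all probe sets). Leaving out 1 array at a time gave 30 to 34 calls. Cdk1 (0.74 ± 0.20, adjusted p = 0.00814) was lost without unstimulated thrombin-experiment replicate 2 (limma adjusted p = 0.0532) or TRAP-experiment replicate 2 (0.0605), and Pcna without the latter (0.062). Cdc20 went from 0.91 to 0.59 without unstimulated thrombin-experiment replicate 1 and stayed called.

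Against the same thrombin-experiment arrays, unstimulated cells of the PTX experiment were higher in fewer of these genes. The limma fit called 13 higher (6 mitosis and 7 replication; 21.5% of all probe sets) and 1 lower (19.1% of all probe sets). The 24% of mitosis genes called higher were near the share of all probe sets, and the replication genes stood at 63.6%. Both comparisons share their control arrays, so they are set side by side and not correlated. Medians were 0.34 for mitosis and 0.58 for replication genes, against 1.06 and 1.12 in the TRAP experiment, and 0.03 over all probe sets. Top2a (1.01 ± 0.27, adjusted p = 0.0095), Mcm5 (0.99 ± 0.27, adjusted p = 0.00911), Mcm6 (0.99 ± 0.20, adjusted p = 0.0015) and Mki67 (0.90 ± 0.25, adjusted p = 0.0107) were highest. Of the 7 helicase genes 6 were called, Mcm2 being the exception (0.44 ± 0.18, adjusted p = 0.0602), as were 0 of the 4 cyclin and kinase genes, which ranged from 0.05 for Ccnb1 to 0.28 for Ccna2, cyclin A2. Tyms was lower (-0.67 ± 0.24, adjusted p = 0.039).

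These calls depended on single arrays. Leaving out an array of either group leaves that group with 1, and fewer of all probe sets were then called as well. The 14 genes called either way became 5, 6, 5 and 3 without unstimulated thrombin-experiment replicate 1, replicate 2, PTX-experiment replicate 1 and replicate 2. Mcm6 kept its call in each of these refits. Mki67 was lost without thrombin-experiment replicate 2 (limma adjusted p = 0.086) or PTX-experiment replicate 2 (0.0805), and Top2a without thrombin-experiment replicate 1 (0.104) or PTX-experiment replicate 2 (0.0733). Mcm5 was 0.66 without thrombin-experiment replicate 2 (adjusted p = 0.106). Without the pair of arrays that stand apart 20 genes were higher (12 mitosis, 8 replication; 21.3% of all probe sets) and 1 lower (18.8% of all probe sets). Cdc20 depended on the probe set: its brightest one gave -0.21 (adjusted p = 0.424) and further ones gave 0.98 and 1.07 (adjusted p = 0.00624 and 0.00174). For the TRAP against the thrombin experiment the 13 further probe sets of 10 genes had the same sign as the brightest in 13 of 13 cases.

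**Figure D2:**
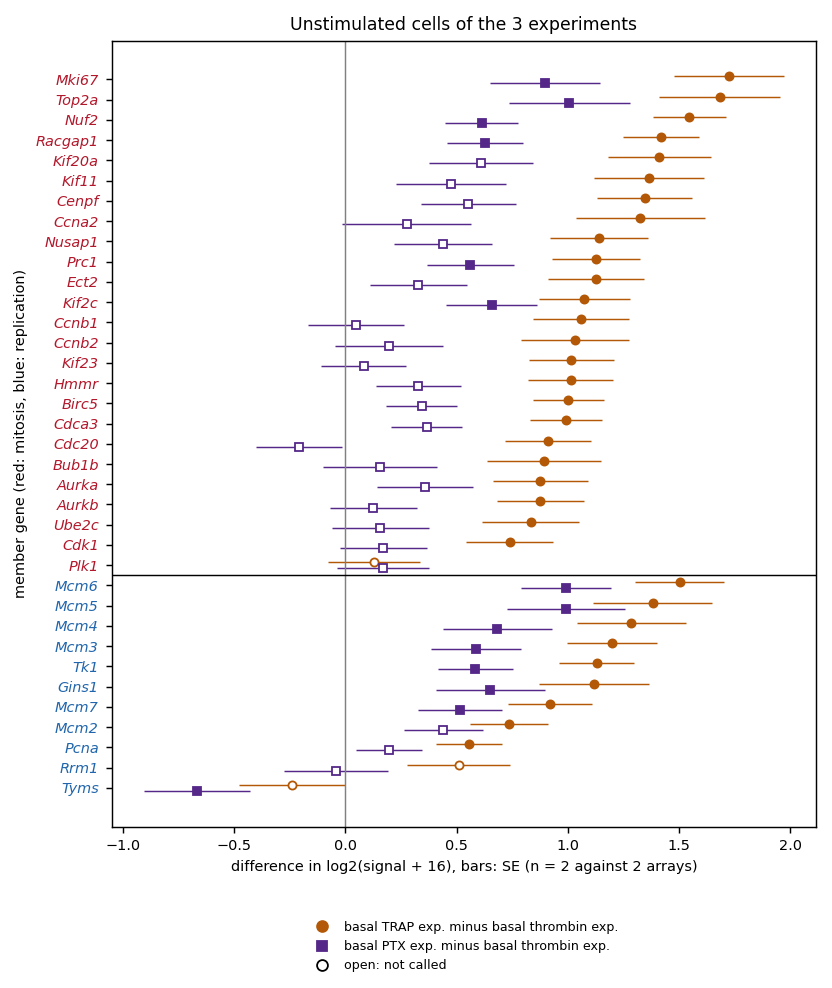
Difference in log2(signal + 16) between unstimulated cells of the TRAP (circles) or PTX (squares) experiment and those of the thrombin experiment, 1 row per gene, with standard errors as bars (2 against 2 arrays); open symbols did not pass an adjusted p of 0.05. The circles lie mostly between 0.74 and 1.73, and the squares lie to their left for every gene but Plk1, with those of Top2a, Mcm5, Mcm6 and Mki67 farthest from 0.

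Between the unstimulated cells of the TRAP and PTX experiments 0 of 36 genes passed the limma threshold, where 0.043% of all probe sets did. An unadjusted p under 0.05, a looser cut to which that share does not apply, was seen in 29 of 36. A further probe set of Hmmr, not the one counted, passed the adjusted threshold (-0.89, limma adjusted p = 0.0436), where the brightest gave -0.68 (0.168). Medians were -0.75 for mitosis and -0.47 for replication genes (PTX minus TRAP experiment), and -0.003 over all probe sets. In 35 of 36 genes both PTX-experiment arrays lay below both TRAP-experiment arrays (22.2% of all probe sets), Plk1 being the exception. Cdc20 (-1.12 ± 0.19, adjusted p = 0.0647), Ccna2 (-1.05 ± 0.29, adjusted p = 0.165) and Ccnb1 (-1.01 ± 0.22, adjusted p = 0.108) were lowest, with Mcm3 (-0.61) and Mcm4 (-0.60) the lowest replication genes. Further probe sets of Cdc20 gave -0.83, -0.15 and -0.010, and those of Tk1 gave 0.26 and -0.04 where its brightest gave -0.55. Of the 13 further probe sets 12 had the sign of the brightest. Mcm2 (-0.29 ± 0.18) and Pcna (-0.36 ± 0.15) were nearer to 0. Without the pair of arrays that stand apart, limma called 25 genes lower, 21 mitosis and 4 replication, where 0.73% of all probe sets were called lower. Kif23, a kinesin of cytokinesis, then had -0.93 with an adjusted p of 0.0029. A limma F test across the unstimulated groups called 33 of 36 genes (42.2% of all probe sets), the others being Plk1, Rrm1 and Tyms.

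Some other measures, though not all, moved with the low levels in the thrombin experiment. The summed signal of 8 smooth muscle markers was 15743 to 20380 on its 4 arrays and 25276 to 32058 on the other 8, and that of 6 fibroblast markers 5402 to 5764 against 8042 to 9040. Within the first sum Tagln, Smtn and Myh11 overlapped between the 4 and the 8 arrays. Mfap5 made up most of the second sum, at 4658 to 4954 against 5381 to 6222. Pdgfra read 41.5 to 71.1 against 235 to 390, Dcn 608 to 784 against 2080 to 2423.5, and Lum 11.3 to 32.2 against 109 to 159. Pi16 and Dpt overlapped. The summed signal of 8 leukocyte markers was 583 to 662 against 342 to 497, most of it from Cd14, with Ptprc and Itgam near 0 on all arrays. That of 6 endothelial markers overlapped, at 82.5 to 114.8 against 45.6 to 95.5. Tek, the 1 endothelial marker that passed the filter, read 67 to 85.7 against 20.1 to 46.1. The ratio of 3′ to 5′ signal of Gapdh, a sign of RNA quality, was 1.06 to 1.10 against 1.11 to 1.18. The part of these in the result was not tested, and fewer dividing cells and less of each RNA per cell cannot be told apart in bulk RNA. When each array was centred on its median, the median difference over all probe sets became -0.18 for both comparisons with the thrombin experiment. The split of calls then went from 4132 higher and 3452 lower to 2671 and 5324 for the TRAP experiment, and from 4010 and 3556 to 2368 and 5596 for the PTX experiment. With that scaling 32 of the 36 genes remained higher in the TRAP experiment (medians 0.87 and 0.93) and 4 in the PTX experiment, with 1 lower. Pcna (0.37, adjusted p = 0.102) was no longer called in the first, and Tk1 (0.37, adjusted p = 0.119) in the second.

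Arrays of 1 label differed most in these genes in the TRAP and the TRAP after PTX groups. TRAP replicate 1 was lower than replicate 2 in 35 of 36 genes, with medians of -0.59 for mitosis and -0.50 for replication genes. TRAP after PTX replicate 1 was higher than replicate 2 in 36 of 36, with medians of 0.66 and 0.58. In the other 4 groups the median over all 36 genes was between -0.09 and 0.04, and over all probe sets it was between -0.02 and 0.02 in each of the 6 groups. Mki67 differed by -0.76 between the TRAP arrays and by 0.79 between the TRAP after PTX arrays.

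The same 8 arrays of the TRAP and PTX experiments on which Saa3 and Lcn2 take sides also took sides in these genes. The 4 arrays of the thrombin experiment are on neither side. They read 33 to 39.8 for Saa3, which is low, and 433 to 566 for Lcn2, which is high, with the lowest levels of most of these genes. Low and high Saa3 below refer to the 8 arrays alone. In 33 of 36 genes the 4 arrays with low Saa3 (unstimulated TRAP experiment, TRAP replicate 2, TRAP after PTX replicate 1) all lay above the 4 with high Saa3, where 3.8% of all probe sets did. These comprised 22 of 25 mitosis and 11 of 11 replication genes, and the exceptions were Nuf2, Aurka and Plk1. The arrays were sorted by the data and not by their labels, so this is a description without a test. The 4 arrays with low Saa3 lay above all 4 of the thrombin experiment in 35 of 36 genes (23.1% of all probe sets) and those with high Saa3 in 22 of 36 (21.6%).

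**Figure D3:**
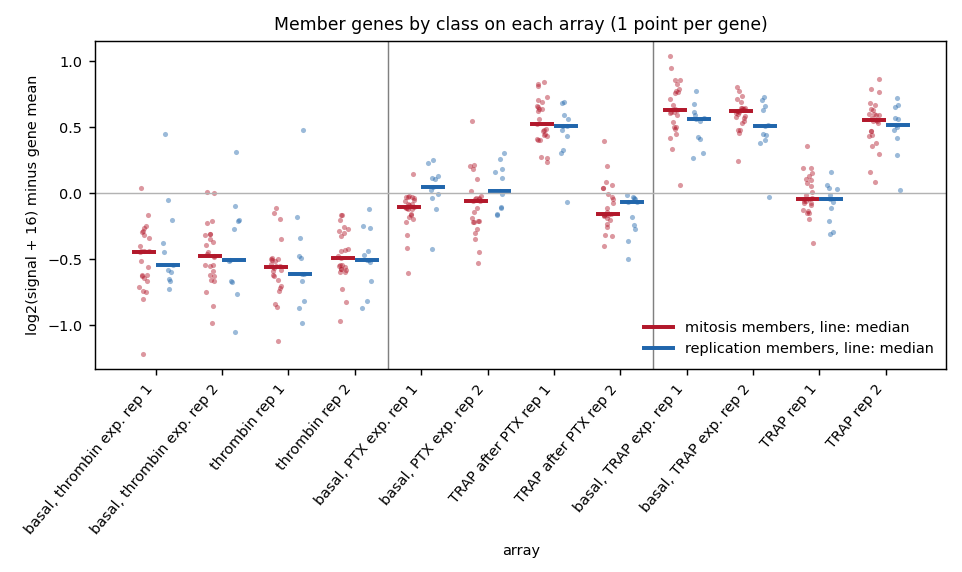
Each point is 1 gene on 1 array, as log2(signal + 16) minus the gene's mean over the 12 arrays (vertical axis), with the median of the mitosis (red) and replication (blue) genes as lines; arrays are on the horizontal axis, grouped by experiment. The medians lie between -0.61 and -0.44 on the 4 thrombin-experiment arrays, between 0.51 and 0.63 on 4 arrays of the other experiments and between -0.16 and 0.04 on the remaining 4.

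The replication genes lay above the mitosis genes in class median on 3 arrays, by 0.15 and 0.08 on the unstimulated arrays of the PTX experiment and by 0.09 on TRAP after PTX replicate 2. On TRAP replicate 1, the other array with high Saa3, replication minus mitosis was -0.0053. It was between -0.12 and -0.017 on the 4 arrays with low Saa3 and between -0.10 and -0.017 on the 4 of the thrombin experiment. The classes were not tested against each other.

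By the brightest probe set of each gene, 1 of the responses after 120 min of stimulation passed the test, that of Nuf2 to TRAP after PTX. After thrombin 0 of 36 genes passed the limma threshold (4.74% of all probe sets did), and 1 had an unadjusted p under 0.05. That gene was Prc1, which bundles microtubules of the central spindle (0.43 ± 0.20, adjusted p = 0.268). Medians were -0.020 for mitosis and -0.097 for replication genes, and -0.036 over all probe sets. Among mitosis genes Top2a (0.30 ± 0.27) was the next highest after Prc1, and Plk1 (-0.42 ± 0.21, 95% interval -0.86 to 0.03) and Hmmr (-0.25 ± 0.19) the lowest. The further probe set of Hmmr gave 0.12, and 9 of the 13 further probe sets had the sign of the brightest. Among replication genes Mcm3 (0.11) and Gins1 (0.09) were highest, and Rrm1 (-0.30) and Mcm7 (-0.29) lowest. In 13 of 36 genes the stimulated arrays did not overlap the unstimulated ones, 4 higher and 9 lower, where 18.8% and 28.6% of all probe sets did not.

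After TRAP, limma again called 0 of 36 genes (3.9% of all probe sets), with 7 at an unadjusted p under 0.05. All 36 values were below 0, with medians of -0.35 for mitosis and -0.28 for replication genes. Nuf2 (-0.61 ± 0.16, adjusted p = 0.0548), Bub1b, a kinase of the spindle checkpoint (-0.55 ± 0.26, adjusted p = 0.307), and Mcm6 (-0.44 ± 0.20) and Mcm4 (-0.43 ± 0.24) were lowest in their classes, and Kif23 (-0.14) and Mcm2 (-0.13) nearest to 0. In 18 genes both stimulated arrays lay below both unstimulated ones (29.4% of all probe sets). These values rest on TRAP replicate 1. Without it the medians were -0.075 and -0.033 with 0 calls, and without TRAP replicate 2 they were -0.62 and -0.53 with 2 calls, Ube2c and Mcm6. With both arrays that stand apart left out, 0 genes were called (2.61% of all probe sets). Nuf2 alone was called without TRAP after PTX replicate 1 (limma adjusted p = 0.038) or replicate 2 (0.0374).

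After PTX and TRAP, limma called 1 of 36 genes (2.71% of all probe sets): Nuf2 was 1.68-fold higher than in unstimulated cells of the same experiment (0.75 ± 0.16, adjusted p = 0.0282). A further probe set of Hmmr, not the one counted, also passed (0.59, limma adjusted p = 0.0399), where the brightest gave 0.32 (0.422). The 13 further probe sets of 10 genes had the sign of the brightest in 9 cases. Values were above 0 in 34 of 36 genes, with medians of 0.32 for mitosis and 0.083 for replication genes. Ccnb1 (0.61 ± 0.22, adjusted p = 0.161) was next among mitosis genes, Tk1 (0.29 ± 0.17) and Mcm3 (0.24 ± 0.20) led the replication genes, and Plk1 (-0.16 ± 0.21) and Mcm2 (-0.04 ± 0.18) were lowest. In 8 mitosis and 0 replication genes both stimulated arrays lay above both unstimulated ones (18.1% of all probe sets). These values rest on TRAP after PTX replicate 1. Without it the medians were -0.016 and -0.24 and 0 genes were called, with Nuf2 at 0.54 (adjusted p = 0.22). With both arrays left out, 0 genes were called as well (0.891% of all probe sets), with Nuf2 at an adjusted p of 0.172. Without TRAP after PTX replicate 2 the medians were 0.68 and 0.41 and 3 genes were called, Nuf2, Kif23 and Ccna2. Without either unstimulated array of the PTX experiment 0 genes were called, Nuf2 having an adjusted p of 0.0673 (replicate 1) and 0.167 (replicate 2).

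**Figure D4:**
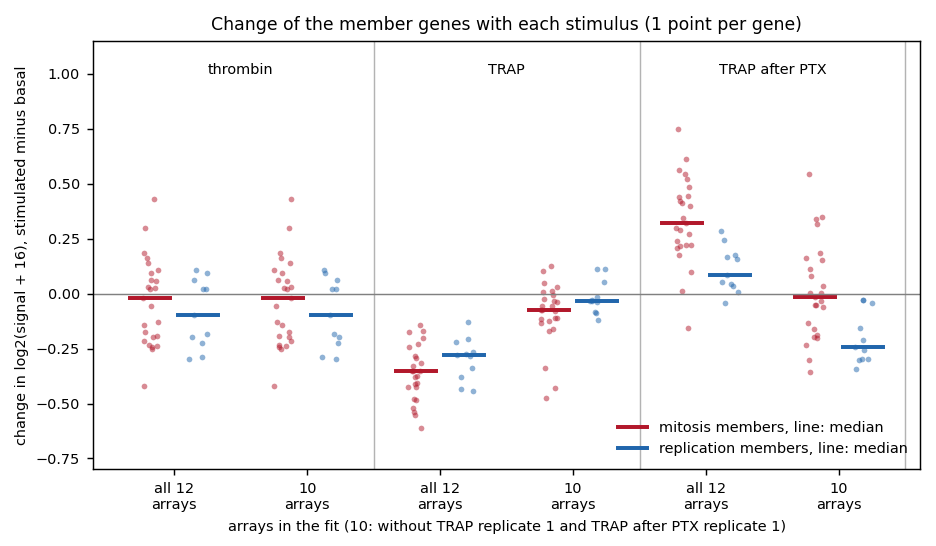
Change of each gene with each stimulus (vertical axis, stimulated minus unstimulated, log2(signal + 16); 1 point per gene, line: class median) in the fit of all 12 arrays and in the fit of 10 arrays that leaves out the pair of arrays that stand apart. With 12 arrays the mitosis medians are -0.020, -0.35 and 0.32 for thrombin, TRAP and TRAP after PTX; with 10 they are -0.020, -0.075 and -0.016.

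The response to TRAP after PTX minus the response to TRAP was above 0 in 36 of 36 genes, with medians of 0.71 for mitosis and 0.44 for replication genes, and limma called Nuf2 alone (1.36 ± 0.23, adjusted p = 0.0386; 0.129% of all probe sets). The next were Ccnb1 (1.04 ± 0.31, adjusted p = 0.285) and Kif11, a kinesin that pushes spindle poles apart (0.92 ± 0.35), and Mcm4 (0.60) and Rrm1 (0.55) among the replication genes. Plk1 was nearest to 0 (0.01 ± 0.29). Without the pair of arrays that stand apart the medians were 0.080 and -0.17, 0 genes were called (0.0483% of all probe sets) and Nuf2 was 0.97 (adjusted p = 0.209). Nuf2 also lost its call in 10 of the 12 refits that leave out 1 array, with differences from 1.16 to 1.57. The thrombin response minus the TRAP response called 0 genes (0.532% of all probe sets; 3 at an unadjusted p under 0.05), with medians of 0.39 and 0.23 and the largest values for Nuf2 (0.71), Prc1 (0.63), Mcm4 (0.49) and Mcm3 (0.39). The medians became 0.093 and -0.018 without the pair of arrays. The average of the 3 responses called 0 genes by limma (13.2% of all probe sets), and 0 had an unadjusted p under 0.05. Its values ran from -0.25 for Plk1 to 0.24 for Prc1, and from -0.17 for Mcm6 to 0.03 for Tk1 among the replication genes. Without the pair of arrays it again called 0 genes (8.91% of all probe sets), and the medians went from -0.018 and -0.13 to -0.036 and -0.14.

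Other genes of the pathway were listed apart from the 40: 33 for replication, 44 for mitosis and 33 regulators of the cycle, of which 30, 36 and 28 were measured. In unstimulated cells of the TRAP against the thrombin experiment, limma called 27 of 30 replication genes higher and 1 lower, and 32 of 36 mitosis genes higher and 0 lower, where 22.2% of all probe sets were called higher and 18.5% lower. Uhrf1, which keeps DNA methylation at replication forks (1.87 ± 0.35), and Ttk, a checkpoint kinase (1.86 ± 0.23), were highest. Pola2, a subunit of DNA polymerase alpha, was lower (-1.45 ± 0.14, adjusted p = 3.08e-06). In the PTX against the thrombin experiment 17 replication genes were higher and 2 lower, and 10 mitosis genes higher and 1 lower (Cks1b, -0.68 ± 0.14). The 56.7% of replication genes called higher compare with 21.5% of all probe sets, and the 27.8% of mitosis genes were near that share.

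The regulators were mixed. In the TRAP against the thrombin experiment 14 of 28 were higher (50%, against 22.2% of all probe sets) and 4 lower (14.3%, against 18.5%). Ccne2, an E cyclin of S phase entry (1.55 ± 0.25), and Foxm1, a factor of mitosis genes (0.91 ± 0.23, adjusted p = 0.0059), were higher. The 4 lower ones were Ccnd1 (-1.52 ± 0.22) and Ccnd2 (-1.42 ± 0.10), the D cyclins that respond to growth factors, their kinase Cdk4 (-0.46 ± 0.09), and Cdkn1a, the inhibitor p21 (-1.36 ± 0.11). In the PTX against the thrombin experiment 9 were higher (32.1%, against 21.5%) and 5 lower (17.9%, against 19.1%), with Ccnd1 at -2.27 ± 0.22.

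After thrombin, limma called 1 of the 30 replication genes, 0 of the 36 mitosis genes and 1 of the 28 regulators, where 4.74% of all probe sets were called. Pola2 (-0.57 ± 0.14, adjusted p = 0.0317) and Cdkn1b, the inhibitor p27 (-0.73 ± 0.12, adjusted p = 0.00351), fell, and without the pair of arrays Fen1, Usp1 and Cdkn2c were called as well. After TRAP it called 0 replication genes, 1 mitosis gene and 1 regulator (3.9% of all probe sets). With all 12 arrays Ttk fell (-0.90 ± 0.23, adjusted p = 0.0486) and Cdkn1a rose (0.48 ± 0.11, adjusted p = 0.0333). Both calls were lost without TRAP replicate 1, where Ttk was -0.78 (limma adjusted p = 0.235) and Cdkn1a 0.44 (0.165), and without the pair of arrays that stand apart (adjusted p = 0.0815 and 0.17). After PTX and TRAP 0 of these genes passed the limma threshold (2.71% of all probe sets), with or without the pair, and 1, 7 and 1 of the replication, mitosis and regulator genes had an unadjusted p under 0.05 with all 12 arrays. In the average of the 3 responses Cdkn1b (-0.38 ± 0.07, limma adjusted p = 0.00308), Pola2, Usp1, Sgo1 and Cdkn2c fell (13.2% of all probe sets were called). Without the pair Sgo1 was no longer called (-0.38, limma adjusted p = 0.0519) and the other 4 were, with Prim1 and Fen1 in addition. Without TRAP replicate 1 alone, Usp1, Sgo1 and Cdkn2c were not called (adjusted p = 0.116, 0.0605 and 0.0932).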

How the data were processed

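RNA of the 12 samples was hybridised to 1-colour Affymetrix rat arrays. The deposited values are signal intensities on a linear scale, 1 per probe set, made by the authors with GCOS 1.4, per the submitters' processing notes. In the files, the trimmed mean (2% cut at each end) is 200.066 to 200.076 on every array, and no value is missing. A genome build is not given in the sources used here.

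The 57 control probe sets were left out, log2(signal + 16) was taken, which understates fold changes of dim genes, and the 18625 of 31099 probe sets above the 40th percentile of the mean were tested. Of the probe sets, 20826 list 1 symbol, 436 several and 9780 none. Groups came from the labels. One limma fit (version 3.58.1 in R 4.3.3, with eBayes and an intensity trend) held all 6 groups of 2 arrays (6 residual degrees of freedom, prior 7.50). Tests were 2-sided with Benjamini-Hochberg adjustment over all tested probe sets, and a gene was called at an adjusted p under 0.05. Shares of all probe sets called are for this threshold, and none is given for counts at an unadjusted p under 0.05. Intervals are 95% intervals of the fit. The script was tested on simulated data.

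The members, the lists and the rule for named genes (17 genes chosen by role or smallest p with values on every array, and the largest rises and falls per comparison and class) were chosen with earlier results of these data known. So was the fit without the pair of arrays that stand apart. Its use, and that of the fits without either array, for genes outside the 40 was added after seeing the data. Other alternatives were pseudocounts of 1 and 64, no filter and the 60th percentile, median centring, quantile normalization, no intensity trend, the compared arrays alone, a replicate block, the mean of all probe sets of a gene, and leaving out each array. A group left with 1 array is assumed to vary like the others. Same-numbered arrays of an experiment correlated in their deviations with r = 0.134, 0.104 and 0.022 for the thrombin, TRAP and PTX experiments, so the numbers were not taken to pair them. Promoters, from RefSeq, were matched by Entrez gene number.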

Additional observations from a re-analysis of the deposited data

Results flagged for a closer look

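The response of Nuf2, the kinetochore gene, differed between TRAP after PTX and TRAP alone by 1.36 on the log2 scale (limma, adjusted p = 0.0386), each array of the first lying above its unstimulated cells and each of the second below. The call was lost in 10 of the 12 refits without 1 array, and without the pair of arrays that stand apart the difference was 0.97 (adjusted p = 0.209). The inflammatory genes Saa3, Lcn2 and Ccl2 also differ between the replicates of these groups, and their part was not tested. For other genes the arrays of a pair of stimuli moved in opposite directions without a call. Between TRAP after PTX and TRAP these were Hmmr (0.67, adjusted p = 0.507), Nusap1 (0.85, adjusted p = 0.453), Birc5 (0.72, adjusted p = 0.332) and Cdc20 (0.80, adjusted p = 0.416), all by limma, and without the pair they were 0.20, 0.14, 0.39 and 0.40. The response to TRAP minus that to thrombin was -0.56 for Racgap1 and -0.63 for Ube2c (limma adjusted p = 0.448 and 0.532). Without the pair the response to thrombin minus that to TRAP was 0.32 and 0.22 for these genes. For TRAP after PTX minus thrombin the values were 0.76 for Kif23, 0.57 for Hmmr and 0.57 for Birc5, and this difference was not tested. It depended on the probe set: further ones rose after both stimuli, Kif23 by 0.13 (thrombin) and 0.19 (TRAP after PTX) and Hmmr by 0.12 and 0.59. For TRAP after PTX minus TRAP, further probe sets gave 1.04 for Hmmr, 0.73 for Nusap1, and 1.06, 0.40 and -0.16 for Cdc20.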

How the results depend on the processing

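In the fit without replicate 1 of TRAP and replicate 1 of TRAP after PTX, medians for mitosis and replication genes were -0.075 and -0.033 for TRAP, -0.016 and -0.24 for TRAP after PTX, 0.093 and -0.018 for thrombin minus TRAP, and 0.080 and -0.17 for TRAP after PTX minus TRAP. Called genes then numbered 0 for TRAP after PTX and 0 for its difference from TRAP, and 25 between the unstimulated TRAP and PTX experiments. For TRAP, Nuf2 alone was called (1 gene) with a pseudocount of 64 and with the compared arrays alone, where 798 and 892 of all probe sets were (727 in the main fit). For TRAP after PTX 0 genes were called without the intensity trend (334 of all probe sets, 505 in the main fit). Its difference from TRAP gave 0 calls with a pseudocount of 1, no filter, no trend or the compared arrays alone. Of all probe sets 23, 13, 0 and 1 were then called (24 in the main fit). For the PTX against the thrombin experiment 8 genes were called with no filter, 5 after median centring and 9 without the trend. Of all probe sets 7332 (of a larger number tested), 7964 and 7161 were then called, against 7566 in the main fit. For the unstimulated PTX against the TRAP experiment 2 genes were called with a pseudocount of 64, 2 after median centring, 1 after quantile normalization and 23 with the compared arrays alone. Of all probe sets 22, 19, 21 and 201 were then called, against 8 in the main fit. With a pseudocount of 64 the median of replication genes for the unstimulated TRAP against the thrombin experiment was 0.83. Both Tyms and Gins1 fell below the 60th percentile filter.

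With the replicate block, Nuf2 was called after TRAP (1 gene; -0.61, adjusted p = 0.0338 by limma), and the block changed no other count of calls by over 1.5 times.

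Leaving out 1 array gave 0 to 2 calls for TRAP (medians -0.62 to -0.075 for mitosis and -0.53 to -0.033 for replication genes), 0 to 3 for TRAP after PTX (-0.016 to 0.68 and -0.24 to 0.41), 0 to 1 for the average, and 0 to 1 for TRAP after PTX minus TRAP (0.37 to 1.03 and 0.12 to 0.75). Medians of thrombin minus TRAP were 0.093 to 0.65 and -0.018 to 0.54. Calls among unstimulated cells numbered 30 to 34 (TRAP against thrombin), 3 to 18 (PTX against thrombin) and 0 to 5 (PTX against TRAP experiment). Of 574 refits of the 25 named differences that were called, 528 kept their call, 46 lost it and 0 reversed.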
